A study of Mus musculus with 23 samples.

Results

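The genes described here are 7 of the 54347 genes counted in RNA sequencing libraries of sorted cells from the mouse lower incisor, and they encode the MHC class II antigen presentation machinery. They were taken by name: Cd74, H2-Aa, H2-Ab1, H2-Eb1, H2-DMa, H2-DMb1 and Ciita, and all 7 were found in the table. The list was chosen by the measured levels of these genes, and their differences between populations and batches, in an earlier look at the same counts, so the levels and differences of the 7 genes are given as a description, without a test. Cells came from the labial cervical loop, the fold of epithelium where the incisor is renewed, of mice at postnatal day 2. All libraries share 1 genotype, a Sox2-GFP line in which the endogenous Sox2 promoter drives green fluorescent protein, so the sort follows that reporter. The tissue was dissociated with enzymes, and fluorescence then separated a Sox2-positive fraction, which the labels give as stem cells of the dental epithelium, from a Sox2-negative fraction. There were 2 batches, prepared on separate days from different mice. Batch A held 6 Sox2-negative and 6 Sox2-positive libraries, and batch B held 4 Sox2-negative and 7 Sox2-positive libraries. The labels do not say whether libraries of a batch came from separate mice, so n is a number of libraries and their spread, which every p-value here rests on, may be technical. They also do not name the strain, and class II genes differ between mouse strains.

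MHC class II molecules present peptides from proteins taken up into endosomes to CD4 T cells. An alpha and a beta chain (H2-Aa with H2-Ab1, and H2-Eb1 with an alpha chain from H2-Ea) assemble on the invariant chain, the product of Cd74, which fills the groove until endosomal proteases such as cathepsin S cut it. The H2-DM heterodimer, made from H2-DMa and H2-DMb1 or H2-DMb2, then exchanges the remaining fragment for peptides. Ciita encodes the co-activator that switches the pathway on. Dendritic cells, macrophages and B cells express the pathway as a matter of course, and interferon-gamma induces it in other cell types, some epithelia among them.

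Ciita does not bind DNA itself. It is recruited by factors that sit on a conserved promoter module, in which an X box, bound by the RFX complex, lies upstream of a Y box, bound by NF-Y. Promoters in the RefSeq table (build GRCm38.p6), which run from 250 bases before the start to 50 after it, were matched for 4 of the 7 genes (H2-Aa, H2-Eb1, H2-DMa and H2-DMb1). Stretches of 3 of them are shown because they hold the shared module. Capitals mark an X-box core written as GNAACT and a Y box written as TGATTGG, and each line runs 5′ to 3′ on the gene's own strand.
H2-Aa: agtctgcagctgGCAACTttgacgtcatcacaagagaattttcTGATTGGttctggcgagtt
H2-Eb1: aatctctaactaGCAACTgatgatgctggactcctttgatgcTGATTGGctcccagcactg
H2-DMb1: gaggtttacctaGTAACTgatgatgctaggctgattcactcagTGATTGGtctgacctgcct

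The H2-Aa stretch lies at chr17:34287855-34287916 on the minus strand. The H2-Eb1 stretch lies at chr17:34305764-34305824 and that of H2-DMb1 at chr17:34153085-34153146, both on the plus strand. The cores stand 25, 24 and 25 bases apart in H2-Aa, H2-Eb1 and H2-DMb1, and the Y box ends 43, 54 and 56 bases before the RefSeq start. For H2-DMb1 the GENCODE gene start used for its position lies upstream of the stretch, so the annotations place the start differently. Both motifs were searched on both strands of 32851 promoters, and their letters and spacing were chosen with these sequences in view. GNAACT was found in 42.8% of promoters and TGATTGG in 7.82%, while the pair with 15 to 40 bases between was found in 80 promoters (0.244%). Neither of the RefSeq promoters of H2-DMa held the pair, which says only that these letters are not in those windows. The 3 genes that share the module differed in expression: H2-Aa and H2-Eb1 were at most 1.52 and 1.88 CPM in Sox2-positive libraries, whereas H2-DMb1 was at 14.1 CPM or more in all 13 of them.

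Library totals ran from 2305778 to 9541443 estimated counts, so that 3 counts, taken as the smallest level the depth can show, correspond to 0.314 to 1.30 CPM. CPM is the usual depth-scaled count, here after TMM scaling of the library totals, and such floors cover counting error only. Sox2 was at most 0.250 CPM in batch A Sox2-negative libraries and between 2.55 and 12.9 CPM in the Sox2-positive ones. In batch B, Sox2 was at 0 in 3 of 4 Sox2-negative libraries and at 1.14 CPM in the other, against 13.3 to 20.3 CPM in Sox2-positive libraries. Libraries 1 and 2 of batch B stood apart in both populations, with more genes detected than the other libraries of their group, and the larger changes without them are given beside the results. The class I genes and the classical class II genes are families of related sequences whose reads the quantifier may split differently, and no strand setting is given.

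**Figure D1:**
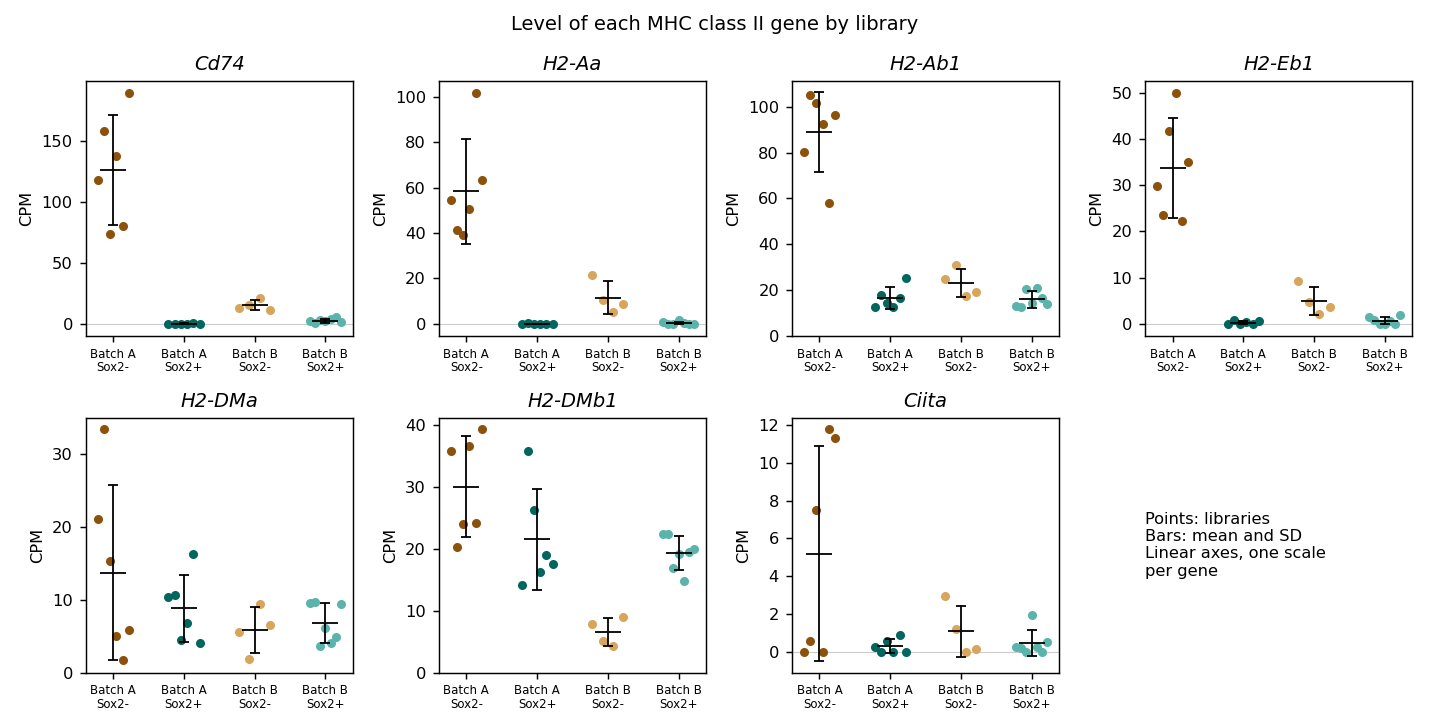
Level in CPM (linear axis, one scale per gene) of each of the 7 genes in each library, with points for libraries and bars for the mean and SD of the 4 groups. Cd74, H2-Aa, H2-Ab1 and H2-Eb1 are highest in batch A Sox2-negative libraries, while H2-DMb1 is lowest in batch B Sox2-negative libraries.

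The invariant chain gene Cd74 (chromosome 18, 60803848 to 60812652 on the plus strand of mm10) was the most abundant of the 7 in batch A Sox2-negative cells. Its level there ran from 73.7 to 190 CPM with a median of 128 (mean 126 ± 44.9, SD, n = 6). In batch B Sox2-negative libraries it was 12.8, 15.2, 21.0 and 11.8 CPM (mean 15.2 ± 4.10, SD, n = 4). These groups did not overlap, and batch A stood 8.30-fold higher. In batch A Sox2-positive cells Cd74 was at 0 in 5 of 6 libraries, with 0.826 CPM, about 4 counts, in the remaining library. In batch B Sox2-positive cells every library held some Cd74, from 0.569 to 5.55 CPM with a median of 2.87 (mean 2.82 ± 1.65, SD, n = 7). Sox2-positive and Sox2-negative libraries therefore did not overlap in either batch, but the distance differed. The fitted log2 difference, Sox2-positive over Sox2-negative, was -9.64 ± 0.60 (SE) in batch A, where it rests on 4 counts and on the model's prior count, and -2.36 ± 0.47 in batch B. Without the library that held those counts the batch A value was -12.17, a shift far beyond that SE, which does not cover the error of so few counts.

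The alpha and beta chains of the classical molecule I-A, H2-Aa (chromosome 17, 34282744 to 34287823, minus strand) and H2-Ab1 (34257689 to 34269419, plus strand), are neighbours, but their levels parted in the Sox2-positive cells. H2-Aa in batch A Sox2-negative libraries ran from 38.9 to 102 CPM with a median of 52.4 (mean 58.4 ± 23.1, SD, n = 6). In batch B Sox2-negative libraries it was 21.7, 10.5, 5.14 and 8.86 CPM, all below the lowest batch A library. It was at 0 in 5 of 6 batch A Sox2-positive libraries, with about 1 count (0.198 CPM) in the other, and in 4 of 7 batch B Sox2-positive libraries, whose highest value was 1.52 CPM. H2-Aa was thus at or near the floor in Sox2-positive cells of both batches. The ratio of H2-Aa between the populations of batch A, on counts scaled for depth, was 1835 with a 95% counting interval of 329 to 72526, a width set by that single count. The fitted log2 difference of H2-Aa was -9.94 ± 0.59 (SE) in batch A, or -11.05 without the library holding the count. That SE is far narrower than the counting interval and does not cover the error of a single count. In batch B it was -4.92 ± 0.83, with -4.18 when libraries 1 and 2 are left out and -5.86 when Sox2-positive library 4 is left out.

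H2-Ab1 was present in all 23 libraries. It ran from 57.9 to 105 CPM in batch A Sox2-negative libraries with a median of 94.5 (mean 89.0 ± 17.5, SD, n = 6), and was 24.8, 31.1, 17.5 and 19.0 CPM in Sox2-negative libraries of batch B. In Sox2-positive cells of batch A it ran from 12.7 to 25.1 CPM (median 15.4, mean 16.5 ± 4.66, SD, n = 6). In those of batch B the range was 12.4 to 20.9 CPM (median 14.4, mean 15.9 ± 3.55, SD, n = 7). The Sox2-positive level was thus alike in the 2 batches, with a log2 difference of batch B over batch A of -0.06 ± 0.22 (SE). The populations stood apart in batch A, 5.38-fold by the means and -2.42 ± 0.24 on the log2 scale. In batch B they overlapped, with a ratio of 1.45 and a log2 difference of -0.46 ± 0.25, which was -0.05 without libraries 1 and 2. Of the exonic 31-base words of H2-Ab1 only 0.267% occur in another annotated gene, all of them in H2-Eb1.

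H2-Eb1 (34305867 to 34316674, plus strand), the beta chain of the I-E molecule, followed H2-Aa. It ran from 22.2 to 50.03 CPM in batch A Sox2-negative libraries with a median of 32.4 (mean 33.7 ± 10.8, SD, n = 6), and was 9.22, 4.69, 2.19 and 3.69 CPM in Sox2-negative libraries of batch B. In Sox2-positive cells it was at 0 in 3 of 6 batch A and 3 of 7 batch B libraries, and its highest value there was 1.88 CPM. The populations did not overlap in either batch, and the log2 differences were -6.63 ± 0.72 (SE) in batch A and -2.83 ± 0.85 in batch B. Its usual partner H2-Ea, annotated as a pseudogene in the mouse reference, was listed at 0 in all 23 libraries.

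The peptide-exchange genes, like H2-Ab1, were present in all 13 Sox2-positive libraries. H2-DMa (34119541 to 34139101, plus strand) ran from 1.78 to 33.4 CPM in batch A Sox2-negative libraries with a median of 10.6, and from 4.13 to 16.2 CPM in Sox2-positive ones with a median of 8.63. In batch B it was 5.51, 1.84, 9.43 and 6.57 CPM in Sox2-negative libraries and 3.71 to 9.75 CPM in Sox2-positive ones, with a median of 6.08. All 4 groups overlapped. The log2 difference between the populations was -0.62 ± 0.63 (SE) in batch A and 0.28 ± 0.48 in batch B, the latter turning to -0.50 without libraries 1 and 2. H2-DMa shares 10.4% of its exon bases with Brd2 on the opposite strand, a ubiquitous gene at 73.8 to 254 CPM by group mean, and without a stated strand setting some of its counts could be those of Brd2.

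H2-DMb1 (34153072 to 34160230, plus strand) was the only one of the 7 with a higher level in Sox2-positive than in Sox2-negative libraries without overlap, and this was so in batch B alone. It was 7.81, 5.14, 4.32 and 8.96 CPM in Sox2-negative libraries of batch B and ran from 14.8 to 22.4 CPM in Sox2-positive ones with a median of 19.5 (mean 19.3 ± 2.76, SD, n = 7). In batch A it ran from 20.3 to 39.4 CPM in Sox2-negative libraries with a median of 29.9, and from 14.1 to 35.8 CPM in Sox2-positive ones with a median of 18.3. The Sox2-positive level changed little between batches, and the Sox2-negative level was 4.58-fold higher in batch A. The log2 difference between populations was -0.47 ± 0.32 (SE) in batch A and 1.63 ± 0.30 in batch B, 2.94-fold by the means. Its neighbour H2-DMb2 encodes a second DM beta chain and shares 31.4% of the 31-base words of H2-DMb1, so the split of reads between them is uncertain. H2-DMb2 had the opposite direction, with 3.09 ± 1.07 CPM (SD, n = 4) in batch B Sox2-negative and 0.468 ± 0.408 CPM (SD, n = 7) in Sox2-positive libraries.

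The co-activator gene Ciita (chromosome 16, 10480059 to 10528418, plus strand) was the least abundant of the 7 in Sox2-negative cells of each batch. In batch A Sox2-negative cells it was at 0 in 2 of 6 libraries and reached 11.8 CPM in another, with a median of 4.03 (mean 5.19 ± 5.68, SD, n = 6). In batch B Sox2-negative libraries it was 2.97, 1.22, 0 and 0.124 CPM, the 2 libraries that stand apart holding nearly all of it. In Sox2-positive cells it was at most 0.892 CPM in batch A, and at most 0.501 CPM in batch B apart from library 4 with 1.97 CPM. All 4 groups overlapped. Ciita passed the filter on low counts only in the fits over all 23 libraries, where its log2 difference between populations with batch in the model was -2.87 ± 1.05 (SE). A library at 0 for Ciita could be high for its targets: batch A Sox2-negative library 4 had 138 CPM of Cd74 and no Ciita count.

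Per kilobase of transcript, which allows genes to be compared, the batch A Sox2-negative order by mean CPM per kb was Cd74 at 95.2, H2-Ab1 at 84.7, H2-Aa at 59.8, H2-DMb1 at 21.4, H2-Eb1 at 20.2, H2-DMa at 8.64 and Ciita at 1.29. Cd74 and H2-Ab1 do not differ beyond their spread, nor do H2-DMb1 and H2-Eb1. In batch B Sox2-negative libraries H2-Ab1 led with 21.97 CPM per kb, ahead of H2-Aa with 11.8 and Cd74 with 11.5, which do not differ beyond their spread. In Sox2-positive cells the order was H2-Ab1, H2-DMb1 and H2-DMa in both batches, with 15.7, 15.3 and 5.54 CPM per kb in batch A. The batch B values were 15.2, 13.7 and 4.26 CPM per kb, and in neither batch did H2-Ab1 and H2-DMb1 differ beyond their spread. Cd74 came next in batch B Sox2-positive cells with 2.13 CPM per kb, so that the invariant chain stood well below the I-A beta chain it normally accompanies.

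The sum over the 7 genes shows this change in make-up. It was 356 ± 53.7 CPM (SD, n = 6) in batch A Sox2-negative, 68.3 ± 12.1 CPM (n = 4) in batch B Sox2-negative, 47.6 ± 10.8 CPM (n = 6) in batch A Sox2-positive and 46.4 ± 1.98 CPM (n = 7) in batch B Sox2-positive libraries. H2-Ab1, H2-DMa and H2-DMb1 together made up 37.4% and 52.6% of the sum in Sox2-negative libraries of batch A and B. In Sox2-positive libraries they made up 98.5% and 90.7%. Cd74, H2-Aa and H2-Eb1 summed to 218, 31.7, 0.483 and 3.88 CPM in batch A Sox2-negative, batch B Sox2-negative, batch A Sox2-positive and batch B Sox2-positive libraries. What the Sox2-positive libraries held was thus mainly a beta chain and the DM genes, with little or no invariant chain or alpha chain.

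**Figure D2:**
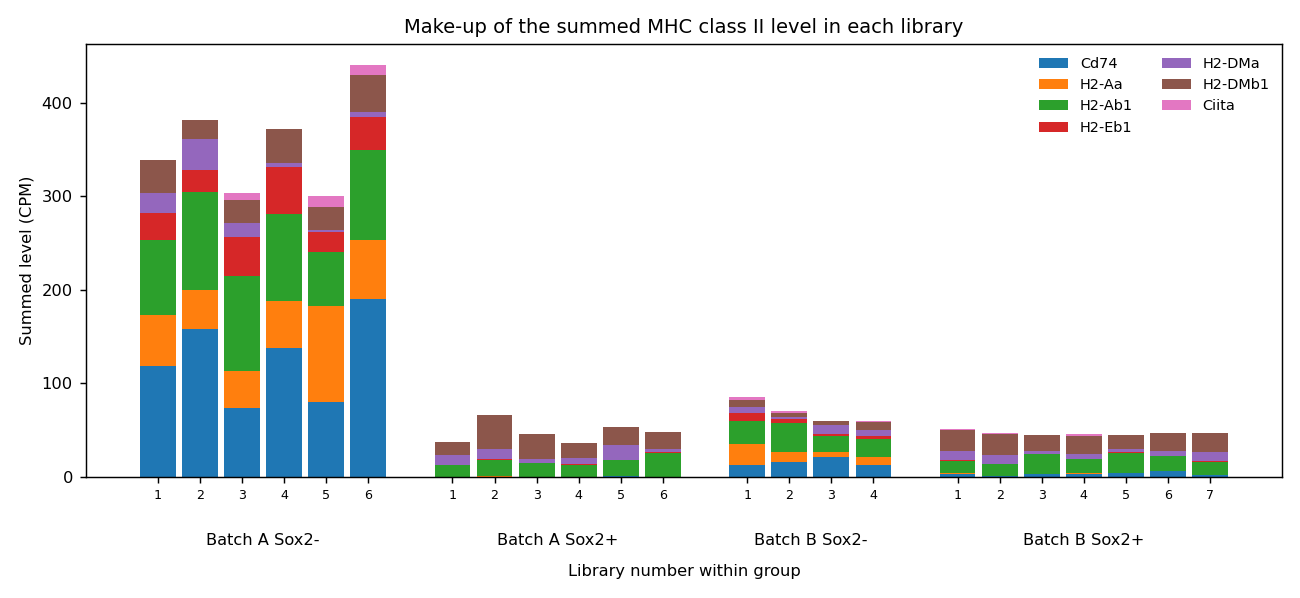
Summed CPM of the 7 genes in each library (linear axis from 0), split by gene and ordered by group and library number. The batch A Sox2-negative bars reach 441 CPM, and the Sox2-positive bars of both batches are made up almost wholly of H2-Ab1, H2-DMa and H2-DMb1.

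Within the Sox2-negative cells all 7 genes were lower in batch B, with log2 differences of batch B over batch A from -3.05 ± 0.47 (SE) for Cd74 to -1.23 ± 0.64 for H2-DMa and a median of -2.21, beside -0.00 over the 17190 genes tested. Without batch B libraries 1 and 2 this log2 difference was -3.05 for H2-Aa and -2.28 for H2-Ab1, in place of -2.33 and -1.95, and -5.56 for Ciita in place of -2.21. The batches did not overlap for Cd74, H2-Aa, H2-Ab1, H2-Eb1 and H2-DMb1, but did for H2-DMa and Ciita. Over all genes tested 5.35% were called lower in batch B and 5.85% higher by the edgeR quasi-likelihood test at an adjusted p under 0.05. In sorted bulk samples fewer cells of a type and less RNA per cell cannot be told apart, so the levels of cell type markers are given beside this difference. The batch A to batch B ratio of summed marker CPM was 2.51 for 5 pan-leukocyte genes, 2.40 for 10 macrophage genes, 2.23 for 5 B cell genes, 2.74 for 6 T and NK cell genes and 1.78 for 10 dendritic and Langerhans cell genes. It was 7.65 for 5 neutrophil genes, 18.3 for 5 mast cell genes, 3.85 for 5 endothelial genes, 1.00 for 5 mesenchymal genes and 0.567 for 6 epithelial genes. Most class II genes had a larger batch ratio than the summed marker lists of the cell types known for the pathway. The 7 genes were chosen with their batch differences in view, so the choice leans to large ratios. Single genes also stand here beside sums of several genes, so no conclusion is drawn from the larger ratios. The marker sums of these cell types were also lower in batch B. Gene by gene, the median log2 difference of batch B over batch A was -1.54 for pan-leukocyte, -1.17 for macrophage and -1.25 for B cell genes. It was 0.31 for the 3 of 10 dendritic and Langerhans cell genes that could be tested. Called lower were 3 of 5 pan-leukocyte, 2 of 10 macrophage, 0 of 5 B cell and 0 of the 3 dendritic genes. The part of these cells in the class II difference was not tested.

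**Figure D3:**
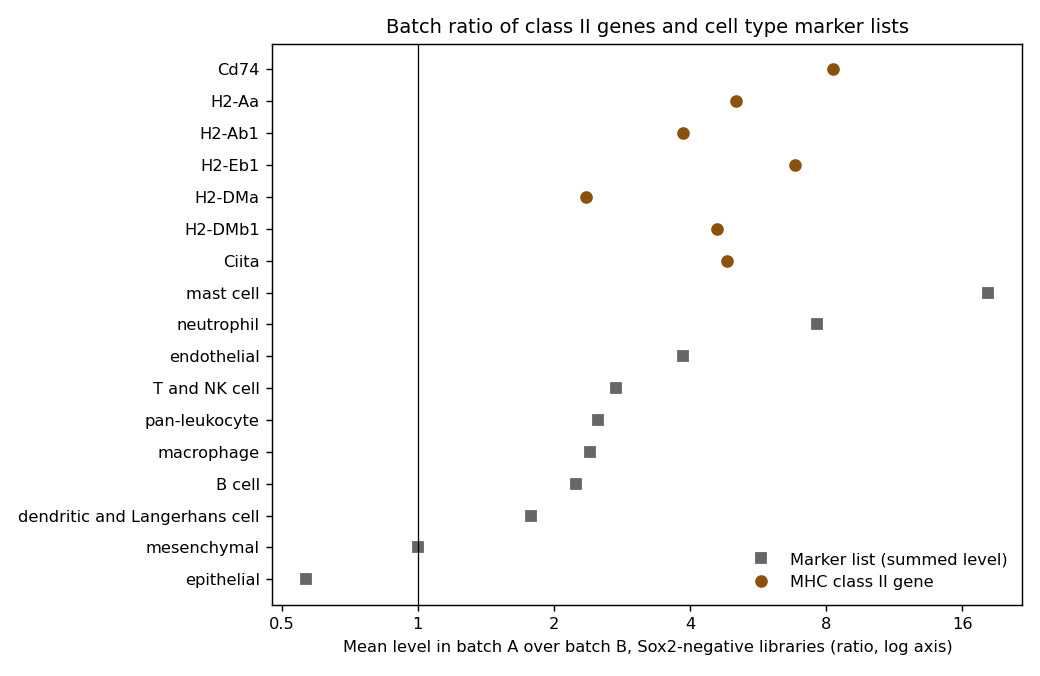
Ratio of the mean level in batch A to that in batch B among Sox2-negative libraries (log axis), for each class II gene and for the summed level of each marker list. Class II genes lie between 2.35 and 8.30, and the pan-leukocyte, macrophage, B cell and dendritic lists between 1.78 and 2.51.

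Ratios within libraries were taken for Cd74, H2-Aa and H2-Eb1 only, the genes with the largest batch ratios (8.30, 5.06 and 6.82). Those of H2-Ab1, H2-DMb1, Ciita and H2-DMa were 3.86, 4.58, 4.82 and 2.35. The choice of genes thus leans to a large batch difference. Cd74, H2-Aa and H2-Eb1 summed to 0.597 ± 0.131 (SD, n = 6) of the pan-leukocyte sum in batch A Sox2-negative libraries, from 0.422 to 0.745, and to 0.227 ± 0.0959 (n = 4) in batch B, from 0.142 to 0.365. Against the macrophage list the ratio was 0.5995 in batch A and 0.214 in batch B, and against the B cell list 2.72 and 0.912. Against the dendritic and Langerhans cell list it was 5.66 and 1.56, without overlap of the batches in any of the 4 ratios. Among defining markers in Sox2-negative cells, Ptprc stood at 65.4 ± 28.7 CPM (SD, n = 6) in the batch A libraries, whereas those of batch B had 22.4 ± 5.06 CPM (n = 4). The Langerhans cell gene Cd207 had at most 1 count in any of the 23 libraries.

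Between the batches of Sox2-positive cells Cd74 stood furthest apart, while H2-Aa was at 0 in most libraries of each batch. The log2 difference of batch B over batch A was 4.20 ± 0.68 (SE) for Cd74, from about 4 counts in all batch A libraries to about 95 in batch B, with 1 batch A library above the lowest batch B library, and became 6.88 without that batch A library. It was 2.67 ± 1.09 for H2-Aa, on about 1 count against about 11, with 1.77 without batch B library 4 and 3.90 without batch A library 2. For H2-DMa and H2-DMb1 it was -0.38 ± 0.54 and -0.16 ± 0.27. The median over the 7 genes was 0.75, beside 0 over all genes tested. It is the value of Ciita (0.75 ± 1.28), which turned to -0.27 without batch B library 4. Of all genes tested, 4.85% were called higher and 5.54% lower. Markers of leukocytes were low in both batches of Sox2-positive cells: the pan-leukocyte sum was 3.71 ± 2.91 CPM (SD, n = 6), ranging from 0 to 8.25, in batch A, while it was 3.35 ± 2.86 CPM (SD, n = 7), ranging from 1.07 to 9.06, in batch B. Cd52 and Cd53 were at 0 in all 13 libraries. Laptm5 was at 0 in every batch A library but not in every batch B library. Of the 5 pan-leukocyte genes, 1 passed 3 counts in some batch A library and 3 did so in batch B. Of the 10 macrophage genes, Adgre1, Csf1r, C1qa, C1qb and C1qc were at 0 in batch B Sox2-positive cells, while Mertk, at 46.5 CPM, made up most of the sum there. Between the batches of Sox2-positive cells Mertk and the B cell gene Cd79b were called higher in batch B and Csf1r lower (edgeR quasi-likelihood test, adjusted p of 0.0121, 0.0374 and 0.0321). Cd79b was at 0 in all batch A libraries and Csf1r in all batch B ones, so each of these calls has a group without a count. Of the other markers 2 epithelial genes were called higher, and 1 neutrophil and 1 mesenchymal gene lower. In batch B Sox2-positive cells the neutrophil sum was 0.0692 CPM, against 0.663 CPM for batch A. The B cell sum was 0.871 CPM (batch A) and 0.954 CPM (batch B), the T and NK cell sum 0.932 and 0.229, and the dendritic and Langerhans cell sum 5.98 and 4.80. The epithelial list, with Epcam, Cdh1, Krt5, Krt14, Krt15 and Trp63, stood in Sox2-positive libraries at 2884 CPM (batch A) and 3777 CPM (batch B), against 184 and 324 CPM in Sox2-negative ones. The mast cell sum in Sox2-positive libraries was 17.0 CPM (batch A) and 7.50 CPM (batch B), the macrophage sum 29.2 and 52.0, the endothelial sum 2.41 and 2.70 and the mesenchymal sum 1030 and 634. The part of any of these in the Cd74 difference was not tested.

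The population difference of every one of the 7 genes was more positive in batch B than in batch A. This interaction, the batch B difference minus the batch A difference, was 7.24 ± 0.81 (SE) for Cd74, 5.00 ± 1.24 for H2-Aa, 3.74 ± 1.15 for H2-Eb1, 2.03 ± 0.42 for H2-DMb1 and 1.89 ± 0.34 for H2-Ab1 on the log2 scale. For H2-DMa and Ciita it was 0.85 ± 0.83 and 2.96 ± 1.89, with errors that are large beside the values. The values for Cd74 and H2-Aa rest on the few counts of batch A Sox2-positive cells, and became 9.94 without library 5 for Cd74 and 6.26 without library 2 for H2-Aa. The value for H2-Aa was 4.10 without batch B Sox2-positive library 4. Without batch B libraries 1 and 2 the interaction was 5.72 for H2-Aa, 2.34 for H2-Ab1 and 6.502 for Ciita. The median over the 7 genes was 2.96, beside 0.02 over all genes. For H2-DMb1 and H2-Ab1 the shift came with a Sox2-negative level that differed between batches and a Sox2-positive level that did not.

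Among 44 other genes of antigen presentation, in 6 lists, 35 could be tested with batch in the model. In Sox2-positive cells 20 of these were lower and 6 higher (edgeR quasi-likelihood test, Benjamini-Hochberg adjusted p under 0.05), with a median log2 difference of -0.85, against 32.5% lower and 24.9% higher and a median of -0.12 over all genes. In batch A alone 15 of 31 were lower and 3 higher with a median of -0.88, beside 24.2% and 19.3% of all genes and their median of -0.04. In batch B alone 15 of 34 were lower and 6 higher with a median of -0.49, beside 27.6% and 27.1% and a median of 0.01. The higher count in batch A became 5 with DESeq2, with total-count scaling and with a fit of all 23 libraries.

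The class I presentation genes were lower in Sox2-positive cells: 9 of the 9 tested fell with batch in the model, and 8 and 5 of them in batch A and B alone. Without batch B libraries 1 and 2 the calls of Tap2 and Tapbp over both batches were lost, with adjusted p of 0.0667 and 0.0594 by edgeR, and that of Tapbp was also lost with total-count scaling (0.114) and when any 1 of 8 libraries was left out. The immunoproteasome subunits Psmb8 and Psmb9 had log2 differences of -4.55 ± 0.57 (SE) and -3.17 ± 0.62, the class I light chain B2m one of -3.14 ± 0.12 and the heavy chain H2-K1 one of -2.79 ± 0.22. In batch B alone Psmb9 and Psmb10 lost their calls without libraries 1 and 2, with adjusted p of 0.332 and 0.251 by edgeR. Of the interferon-gamma axis, 6 of 7 tested genes fell, among them the receptor chain Ifngr1 (-2.02 ± 0.13) and the transcription factor Irf1 (-1.97 ± 0.32), with the kinase Jak1 at -1.05 ± 0.13. Irf1 lost its batch B call without libraries 1 and 2, with an adjusted p of 0.078 by edgeR. The call of the other receptor chain, Ifngr2, over both batches was lost without libraries 1 and 2 (adjusted p of 0.0982 by edgeR), with total-count scaling (0.0580) and with no filter (0.0510). In batch A alone 4 of the 7 were called lower. Of all genes 32.5% were called lower over both batches, 24.2% in batch A and 27.6% in batch B.

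The factors that bind the class II promoter module were not lower as a group. Of 7 tested over both batches 3 were higher in Sox2-positive cells and 1 lower, beside 24.9% and 32.5% of all genes. Rfxank and Rfxap of the RFX complex and Nfyc of NF-Y were higher, with log2 differences of 0.97 ± 0.31 (SE), 0.71 ± 0.23 and 0.93 ± 0.15. Creb1, whose product also binds the module, was lower at -0.88 ± 0.22. In batch A alone 1 was higher and 1 lower, beside 19.3% and 24.2% of all genes. In batch B alone 3 were higher and 0 lower, beside 27.1% and 27.6%. Nfya was also called lower over both batches with DESeq2 (adjusted p of 0.0481). In batch B alone Rfxap lost its call without libraries 1 and 2, with an adjusted p of 0.226 by edgeR. Its call there was also lost with RLE scaling (0.0603), with group means of all 23 libraries (0.207) and when any 1 of 6 libraries was left out. In batch A alone Rfxap was not called in the main fit, but was with DESeq2 (adjusted p of 0.0468).

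Among the endosomal processing genes 3 of 6 fell and 2 rose in Sox2-positive cells, beside 32.5% lower and 24.9% higher over all genes. The call of Lgmn, 1 of the 3, was lost without batch B libraries 1 and 2 (adjusted p of 0.0799 by edgeR) and with total-count scaling (0.117). Cathepsin S, the protease best known for cutting the invariant chain, was at 0 in 5 of 6 batch A and in 7 of 7 batch B Sox2-positive libraries. Ctss stood at 108 ± 31.3 CPM (SD, n = 6) and 25.6 ± 19.9 CPM (SD, n = 4) in Sox2-negative libraries of batch A and B. The thiol reductase Ifi30 fell by 1.42 ± 0.22 (SE) on the log2 scale. In batch B alone its log2 difference was -0.27 without libraries 1 and 2, and the call was lost (adjusted p of 0.486 by edgeR). That batch B call was also lost with total-count scaling (0.0542) and with no filter (0.0815). The cathepsins Ctsb and Ctsd, lysosomal proteases found in most cells, rose by 1.31 ± 0.09 and 0.35 ± 0.10. Of the other class II genes 2 of 5 could be tested: H2-DMb2 fell, with a log2 difference of -2.93 ± 0.61, and H2-Oa, part of the DM inhibitor, was at 0.01 and not called. Of the 8 co-stimulation and surface turnover genes 4 could be tested, and Cd40 rose at 0.74 ± 0.31, with an adjusted p of 0.0431 by edgeR that became 0.0513 without batch B libraries 1 and 2 and passed 0.05 when any 1 of 5 batch A libraries was left out.

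**Figure D4:**
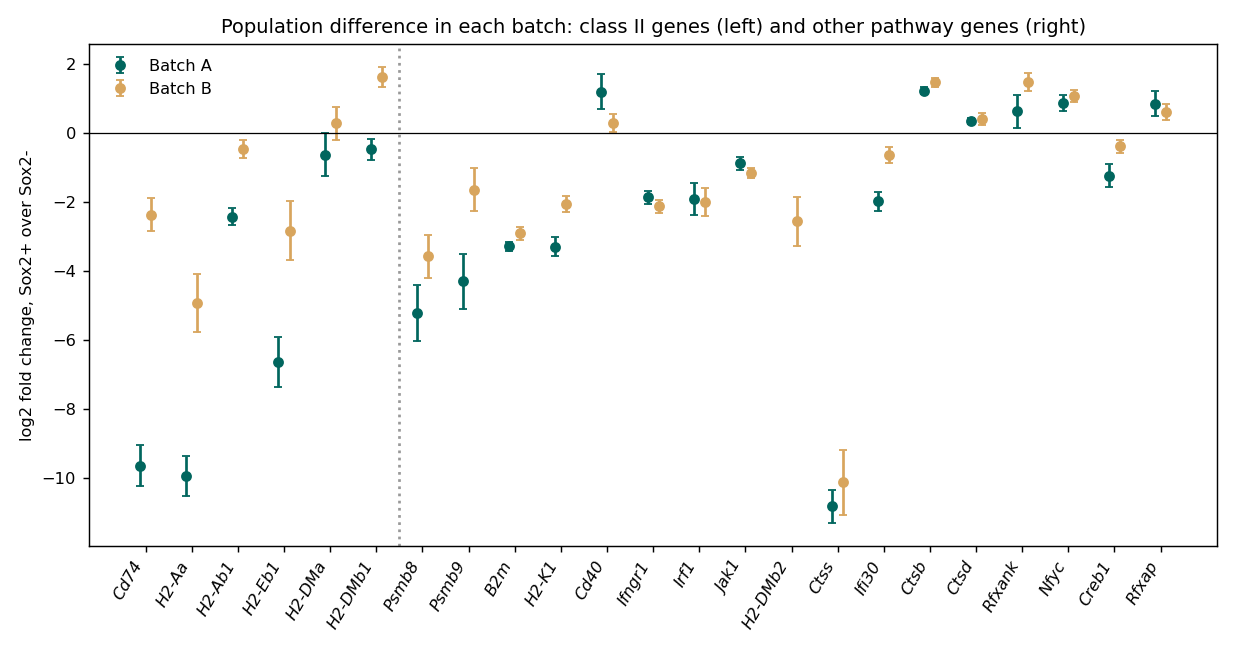
Log2 difference of Sox2-positive over Sox2-negative libraries in batch A and in batch B, with bars for the SE, for the 6 class II genes past the filter in each batch (left of the dotted line) and for other genes of the pathway (right). Cd74 lies at -9.64 in batch A and -2.36 in batch B, H2-DMb1 on either side of 0, and H2-DMb2 has no batch A value because it did not pass the filter there.

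The interaction was called for 4 of the 35 genes, all higher, with a median of 0.37, beside 2.82% higher and 4.22% lower over all genes. These were the class I heavy chains H2-D1 (1.49 ± 0.30 SE) and H2-K1 (1.17 ± 0.35), Ifi30 (1.27 ± 0.36) and the cathepsin gene Ctsl (0.74 ± 0.17), of which H2-D1 and Ctsl were singled out after their values were seen. Lower calls numbered 0 with edgeR and with DESeq2, and 0 at an unadjusted p under 0.05. Without batch B libraries 1 and 2 H2-D1 alone of the 4 was still called, and 2 genes were called without any 1 of Sox2-negative library 6 or Sox2-positive library 4 of batch A, or of Sox2-negative library 1, 3 or 4 or Sox2-positive library 5 of batch B.

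Between the batches of Sox2-negative cells 6 of the 35 genes were lower in batch B and 0 higher, with 1 higher at an unadjusted p under 0.05 by edgeR and 0 with DESeq2. Over all genes 5.35% were called lower and 5.85% higher. The 6 were B2m (-1.50 ± 0.18 SE), H2-K1 (-2.20 ± 0.27), H2-D1, Psmb8, Ctss (-2.07 ± 0.44) and Ifi30 (-1.26 ± 0.28), with a median of -0.47 over the 35. Psmb8 and Ctss lost the call without libraries 1 and 2, and Psmb8 also when any 1 of 9 libraries was left out. In Sox2-positive cells 3 were higher and 5 lower in batch B, with a median of -0.09, beside 4.85% higher and 5.54% lower over all genes. B2m and H2-K1 were among the lower ones, at -1.18 ± 0.15 and -1.03 ± 0.23, 2 of the 9 class I genes tested.

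Genes whose pattern was most like that of the class II genes were sought among 13737 genes by the correlation of log2 CPM with the mean over the 7. Over the 23 libraries the closest were the protease gene Ctsg (Pearson r 0.970), Samsn1 (0.969), the mast cell chymase gene Cma1 (0.968), F630028O10Rik (0.968), Gngt2 (0.968), the mast cell tryptase gene Tpsb2 (0.967), Sst (0.964) and the mast cell protease gene Mcpt2 (0.963). These values are descriptions over libraries that share batch and population, and each of the 8 genes was near 0 in Sox2-positive cells and higher in batch A. With batch means removed, over the 10 Sox2-negative libraries, the closest were Ufm1 (0.913), Terf2 (0.902), Samsn1 (0.898), Gm42507 (0.891), Hbs1l (0.889), Slfn3 (0.878), Far1 (0.874) and Mex3a (0.872). As the highest of 13737 genes over 10 libraries, values of this size can arise from the choice alone, and they were not tested. Samsn1 was the 1 gene in both sets, at 12.9 CPM in Sox2-negative libraries of batch A but 2.55 CPM in those of batch B. The leukocyte gene Ptprc had an r of 0.915 over the 23 libraries and 0.00 over the 10. Other genes looked up had, over the 10, 0.34 (Ctss), 0.19 (Cd79a), 0.04 (H2-DMb2), -0.23 (Csf1r), -0.32 (Cd79b), -0.45 (C1qa) and -0.46 (B2m). The mean over the 7 weighs each gene alike, also Ciita, which ran from 0 to 11.8 CPM in batch A. These values therefore cannot show whether class II levels followed leukocyte genes within a batch.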

How the data were processed

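The authors deposited 1 table of estimated counts (expected counts) for 54347 genes in 23 libraries, with no scaling to depth. Per the submitters' processing notes FastQC, Trimmomatic and Salmon were used and the build was mm10; versions and the annotation are not given in the sources used here. Symbols and positions came from GENCODE release M21 by Ensembl identifier without version (54094 matched, 99.5%). Unused per-sample columns numbered 0.

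Counts were rounded and tested in edgeR 4.0.16 (R 4.3.3) with TMM scaling, filterByExpr (minimum count 10) and the quasi-likelihood F test, two-sided, with Benjamini-Hochberg adjustment over all genes tested. Population was compared in batch A, in batch B, and over both with batch as a covariate. A model of 4 group means gave the interaction and the batch differences. The SE is the absolute log2 fold change divided by the square root of F. It understates the error where a group holds only a few counts, as for Cd74 and H2-Aa in batch A Sox2-positive cells. Of the 7 members, 6 passed the filter in each batch alone and 7 over all libraries. Alternatives were DESeq2 1.42.0, RLE and total-count scaling, no filter, leaving out each library, a replicate block and, chosen after seeing the data, leaving out batch B libraries 1 and 2.

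The members and lists were chosen with earlier results of these data known. Named genes were the 7 members, up to 4 called genes per list with the largest change over both batches, others a sentence needed, and the 8 closest genes by correlation (log2 CPM, prior count 2, mean of at least 5 CPM in a Sox2-negative group). Marker lists covered 10 cell types. Library pairs within groups numbered 57, and their counts differed beyond sampling noise (lowest chi-square per degree of freedom 5.46). On simulated data of 17190 genes, 90.5% of 200 genes changed by a log2 value of 2 were called in the comparison over both batches, with 13 false calls. For the interaction 44.5% of 200 were called, with 1 false call. The changed genes were drawn from those above a cut on mean count, so these shares do not hold for genes near the floor. A few listed genes are counted but not reported singly here. ATAC-seq libraries were not analysed here.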

Additional observations from a re-analysis of the deposited data

Results flagged for a closer look

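In 3 of 28 groups of libraries, the gap of 1 library to the rest exceeded Dixon's 95% critical value, as chance gives in about 1 in 20 groups. Cd74 in batch A Sox2-positive cells was at 0.826 CPM in library 5 and at 0 in the other 5. H2-Aa in the same group was at 0.198 CPM in library 2 and at 0 in the others. Ciita in batch B Sox2-positive cells was at 1.97 CPM in library 4. The first 2 values are about 4 counts and 1 count, and with all other libraries at 0 any nonzero value passes, so they are given as values only.

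The population difference changed between batches, by the interaction term in edgeR with Benjamini-Hochberg adjustment over 17190 genes, for H2-D1 (1.49 on the log2 scale, adjusted p = 0.00198), Ctsl (0.74, adjusted p = 0.0064), Ifi30 (1.27, adjusted p = 0.0322) and H2-K1 (1.17, adjusted p = 0.0389). The call of H2-K1 ended when any 1 of 12 libraries of the 23 was left out, and that of Ifi30 with any 1 of 6.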

How the results depend on the processing

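Without batch B libraries 1 and 2, a choice made after seeing the data, the genes called fell from 1210 to 481 for the interaction, from 1924 to 754 between batches of Sox2-negative cells and from 1785 to 1159 between batches of Sox2-positive cells. Among the 35 pathway genes tested, that choice left 1 of 4 higher for the interaction and 3 of 5 lower between Sox2-positive batches, and dropping the filter on low counts also left 3 of the 5. The 3 higher in batch A became 5 with DESeq2, with total-count scaling and with group means of all 23 libraries. Leaving out 1 library at a time gave 2 to 4 pathway genes higher for the interaction and 0 to 1 higher between Sox2-negative batches. No call of a tested gene reversed. Member values were not tested, and several small ones changed sign. Between Sox2-positive batches that of Ciita turned to -0.27 without batch B library 4. In the same comparison H2-Ab1 turned to 0.11 without batch A library 6 and H2-DMb1 to 0.06 without batch A library 2. The value of H2-DMa turned to 0.02 over both batches without batch A Sox2-negative library 2. In batch B it turned to -0.50 without libraries 1 and 2. Over both batches the value of Cd74 was -5.56, but -7.12 with DESeq2 and -6.77 without batch B libraries 1 and 2. The cause of these shifts was not tested.

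Library numbers showed no pairing of the populations: correlations of same-numbered deviations ran from -0.0212 to 0.0444. These values cannot show whether same-numbered libraries came from the same mice, which the labels do not say. With a replicate block, counts of called genes stayed within 1.5 times, the batch B calls of Psmb9 (adjusted p = 0.0900 by edgeR), Psmb10 (0.0713), H2-DMb2 (0.0588), Ifi30 (0.138) and Rfxap (0.132) were lost, as were those of Lgmn and Jak2 in batch B (0.0874 and 0.0894) and of Tap2 and Lgmn over both batches (0.151 and 0.0724). Cd40 was called in batch A (0.0250), and Tap1 in batch B (0.0495). Total-count scaling moved the median of all genes by 0.12 in the comparison over both batches and by -0.15 between Sox2-negative batches. Depth limits values under about 1 CPM, which include most Sox2-positive values of H2-Aa, H2-Eb1 and Ciita.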
